A study of Mus musculus with 5 samples.

Results

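The bone morphogenetic protein (BMP) system was followed through 10 genes, 5 ligands (Bmp2, Bmp4, Bmp5, Bmp6 and Gdf10) and 5 antagonists (Grem1, Nog, Fst, Fstl1 and Bambi), in single-cell RNA-seq of Prx1-derived skeletal muscle cells. The members were chosen by name as BMP ligands and antagonists and not by a rule on their values, though with earlier results of these data known. They are 10 of the 31055 genes in the deposited count matrices. All 10 were detected in every library. The cells were GFP+ cells sorted from hindlimb skeletal muscle of Prx1Cre;mTmG mice on a C57Bl/6 background, 10 to 14 weeks old, with the muscle around the tibia dissected away from periosteum and bone marrow. In these mice Cre driven by the Prx1 promoter in limb mesenchyme switches a membrane reporter from Tomato to GFP permanently, so GFP marks descent from Prx1-expressing cells and not present Prx1 activity. Every library, the uninjured one included, carried this reporter and was sorted in the same way. There were 5 libraries of 2 pooled mice each: d0 (no injury), d3 and d5 post-fracture (non-stabilized tibial fracture), and d3 and d5 post-polytrauma (the same fracture with a mechanical injury to the adjacent muscle). With 1 library per condition there is no replicate, so no difference below has a test or a p-value, and all intervals are exact 95% intervals that cover counting error only.

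The labels of 2 libraries are in conflict with the study's own cell numbers. The library labelled d5 post-fracture is called d3 post-polytrauma here and the library labelled d3 post-polytrauma is called d5 post-fracture. Each comparison of the members that uses them is also given with the conditions as deposited. The comparisons of the other pathway genes, and the levels, shares and clusters, are given only under the names used here. Cells with 350 to 8000 genes, under 20% mitochondrial UMIs (unique molecular identifiers, each counting 1 captured transcript) and at least 1000 UMIs were kept, which left 29831 cells and 474766330 UMIs. The depth was uneven. The d0 library held 4632 cells with a median of 3640 UMIs, the polytrauma libraries held 6201 (d3) and 11941 (d5) cells and the d3 post-fracture library 5589, with medians of 15688 to 17963 UMIs, and the d5 post-fracture library held 1468 cells with a median of 34949 UMIs. Libraries also shared cell barcodes: d0, d3 post-fracture and d3 post-polytrauma shared 405 to 525 barcodes in each pair, and the libraries called d5 post-fracture and d5 post-polytrauma shared 944, so that 869 of the 1468 d5 post-fracture cells had a barcode seen elsewhere. Prrx1, the gene behind the Prx1 driver, lay at 124 to 275 CPM and was detected in all 5 libraries, as were the 4 other FAP/MP markers. Markers of other cells were not absent, and their sums differed between libraries. The 4 erythroid markers summed to 303 CPM at d0, 40.0 and 2.80 at d3 and d5 post-fracture, and 33.6 and 60.5 at d3 and d5 post-polytrauma. The 5 endothelial markers summed to 48.7 CPM at d0 and 3.64 to 9.58 after injury, and the 5 Schwann cell markers to 8.06 to 55.0, highest at d5 post-fracture. The endothelial sum at d0 was mostly Tek, at 37.1 CPM, with Kdr next at 4.87. At d5 post-fracture, 3 Schwann cell markers stood above the rest in the cluster led by Col2a1. No cluster in any library was named for either list, so these sums do not show that endothelial or Schwann cells were present. The 5 myogenic markers summed to 0.287 to 0.470 CPM at d0 and after fracture, with Pax7 and Myf5 at 0, and to 3.72 at d3 and 1.30 at d5 post-polytrauma, and at d3 post-polytrauma a cluster of 191 cells (3.08%) was led by the muscle genes Myog, Mylpf, Chrna1, Ttn and Myod1. The 6 hematopoietic markers summed to 38.8 CPM at d3 post-polytrauma, led by Tyrobp at 14.3 CPM, and to less in each of the 4 other libraries, with the lowest sum, 7.58, at d5 post-fracture. Levels are given throughout as CPM, the UMIs of a gene per 1000000 UMIs of all kept cells of a library, and they serve to compare libraries or clusters for 1 gene, not genes with each other.

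BMP ligands are secreted dimers of the TGF-beta superfamily that bring type I and type II serine/threonine kinase receptors together, upon which SMAD proteins are phosphorylated and enter the nucleus, where the Id genes are classical targets. Secreted antagonists bind the ligands outside the cell and decoy receptors occupy receptor complexes without signalling, so that the outcome depends on ligand, antagonist and receptor together. In the musculoskeletal system BMP signalling is known for cartilage and bone formation and fracture repair, and for balancing myostatin and activin signals in muscle mass.

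The upstream sequences are shown for Bmp4 and Gdf10, the ligands that differed most between the libraries taken after fracture, and for Bmp5, the ligand with the narrowest range over the 5 libraries. They are the 250 bases before the RefSeq transcription start on GRCm38.p6, written 5′ to 3′ on the strand of the gene, and capitals mark the motifs searched for. Bmp4 lies at chr14:46390670-46390919 on the minus strand, Gdf10 at chr14:33923337-33923586 on the plus strand and Bmp5 at chr9:75775115-75775364 on the plus strand.
Bmp4: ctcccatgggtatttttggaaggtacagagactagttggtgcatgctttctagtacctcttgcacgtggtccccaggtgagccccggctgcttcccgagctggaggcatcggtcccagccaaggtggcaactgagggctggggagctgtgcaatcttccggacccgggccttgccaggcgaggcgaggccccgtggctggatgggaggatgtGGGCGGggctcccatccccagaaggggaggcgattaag
Gdf10: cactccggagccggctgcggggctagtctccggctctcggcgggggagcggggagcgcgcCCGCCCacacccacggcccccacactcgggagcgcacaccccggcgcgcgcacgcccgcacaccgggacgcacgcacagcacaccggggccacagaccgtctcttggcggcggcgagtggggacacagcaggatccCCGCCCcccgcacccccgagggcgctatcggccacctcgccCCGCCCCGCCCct
Bmp5: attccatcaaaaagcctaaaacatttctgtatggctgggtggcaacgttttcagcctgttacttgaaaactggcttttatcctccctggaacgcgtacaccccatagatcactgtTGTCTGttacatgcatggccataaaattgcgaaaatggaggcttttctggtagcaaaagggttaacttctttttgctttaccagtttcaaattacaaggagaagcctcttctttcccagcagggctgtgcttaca

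The table held 32851 promoters of 27025 genes, and 6 members were matched (Bmp4, Bmp5, Bmp6, Gdf10, Grem1 and Fstl1). Bmp2, Nog and Fst had no matched entry. Entries on the chromosome of Bambi were left out of the match, so whether Bambi had an entry was not examined. The motifs, read on both strands with overlaps counted, were GGCGCC (a GC-rich SMAD element, in 9.59% of all promoters), CAGACA (which holds the SMAD box, in 17.1%), TATAAA (the TATA box core, in 12.4%), GTCTAGAC (0.167%) and GGGCGG (the GC box, in 32.7%). The GC box was added after the other motifs had been seen to have no match upstream of Bmp4 and Gdf10. The Gdf10 window held it 4 times, beginning 190, 54, 13 and 8 bases before the start, all as its complement CCGCCC, and the Bmp4 window held it at 38 bases. The Bmp5 window held none and had the only CAGACA among the 6 matched members, as TGTCTG 135 bases before the start. The windows also differed in base composition, with 78.8% G and C for Gdf10, 63.2% for Bmp4 and 42.8% for Bmp5, against a median of 52.4% over all promoters. Of the antagonists, Grem1 had GGCGCC at 78 bases and the GC box at 107, 131 and 173 bases, and Fstl1 had the GC box at 22 and 46 bases. These matches describe letters and are not binding sites.

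All 5 ligands had their highest level in uninjured muscle. How many of all genes peak in that library was not counted. Of the genes tested, 33.5% were at least 2-fold lower at d3 post-fracture than at d0. Bmp2 (chr2:133552159-133562885), a strong inducer of cartilage and bone, lay at 141 CPM (135 to 147) at d0, 16.4 (15.6 to 17.2) at d3 post-fracture, 13.5 (12.6 to 14.6) at d5 post-fracture, 21.8 (20.9 to 22.7) at d3 post-polytrauma and 8.37 (7.98 to 8.78) at d5 post-polytrauma. The d0 level was 16.8 times the lowest, and no intervals overlapped. Since a level pools all kept cells, fewer cells of a type and less RNA per cell cannot be told apart in it. Bmp4 (chr14:46383520-46390669), the close relative of Bmp2 that acts in limb and skeletal patterning, lay at 93.0 (88.5 to 97.7) at d0, 5.11 (4.68 to 5.58) at d3 post-fracture, 16.8 (15.7 to 18.0) at d5 post-fracture, 4.60 (4.19 to 5.03) at d3 post-polytrauma and 4.85 (4.55 to 5.16) at d5 post-polytrauma. Its range was the widest of the 10 members, 20.2-fold, and its 3 lowest libraries did not differ beyond counting error.

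Bmp5 (chr9:75775364-75900310), known from the short ear mouse for its part in cartilage and skeletal growth, lay at 84.9, 25.9, 44.4, 22.1 and 33.7 CPM at d0, d3 and d5 post-fracture, and d3 and d5 post-polytrauma, the narrowest range of the ligands at 3.85-fold. Bmp6 (chr13:38345107-38500302), known outside the skeleton as the regulator of hepcidin, was a low gene with 12.3 (10.7 to 14.1) at d0 and 1.48, 2.14, 1.67 and 1.74 in the same order after injury, and neighbouring values among these 4 overlapped in their intervals. Gdf10 (chr14:33923587-33937983), a divergent ligand most like Bmp3, stood apart from the others: it lay at 38.4 (35.5 to 41.4) at d0, 5.33 (4.89 to 5.81) at d3 post-fracture, 35.2 (33.6 to 36.8) at d5 post-fracture, 8.11 (7.57 to 8.68) at d3 post-polytrauma and 3.63 (3.37 to 3.90) at d5 post-polytrauma. Its d0 and d5 post-fracture levels did not differ beyond counting error, and both were several times those of the other 3 libraries.

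All 5 antagonists were highest at d5 post-fracture. How many of all genes peak in that library was not counted either. Of the genes tested, 40.3% were at least 2-fold higher at d5 than at d3 post-fracture. On thinned cells Grem1 was seen in 0.209% at d5 post-fracture and 0.304% at d5 post-polytrauma, with overlapping intervals. Grem1 (chr2:113746164-113758646), a secreted antagonist of BMP2 and BMP4, had 10, 64, 156, 54 and 292 UMIs at d0, d3 and d5 post-fracture, and d3 and d5 post-polytrauma, or 0.573, 0.640, 3.01, 0.523 and 1.44 CPM. The d0, d3 post-fracture and d3 post-polytrauma levels had overlapping intervals. Noggin (Nog, chr11:89300638-89302332), which caps BMP ligands at their receptor-binding surfaces, had 16, 21, 60, 24 and 86 UMIs in that order, or 0.918, 0.210, 1.16, 0.232 and 0.425 CPM, with d0 and d5 post-fracture overlapping. These are low counts, and at d5 post-fracture 61 of the 156 Grem1 UMIs came from 1 cell and 73.1% from 10 cells.

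Follistatin (Fst, chr13:114452290-114458951), which binds activins most strongly and some BMPs, lay at 87.7, 94.6, 167, 128 and 93.3 CPM in the same order of libraries, the narrowest range of all at 1.90-fold, and the intervals of its 3 lowest libraries overlapped between neighbours. Fstl1 (chr16:37776873-37836514), a secreted follistatin-like glycoprotein reported to bind BMP4, was abundant at 956, 1000, 1955, 740 and 1200 CPM. Bambi (chr18:3507923-3516404), a transmembrane decoy receptor without a kinase domain, lay at 19.0, 10.5, 41.6, 15.4 and 19.5 CPM, with d0 and d5 post-polytrauma overlapping. The highest level was 1.90 to 5.75 times the lowest among the antagonists and 3.85 to 20.2 times among the ligands, and these ranges overlap.

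**Figure D1:**
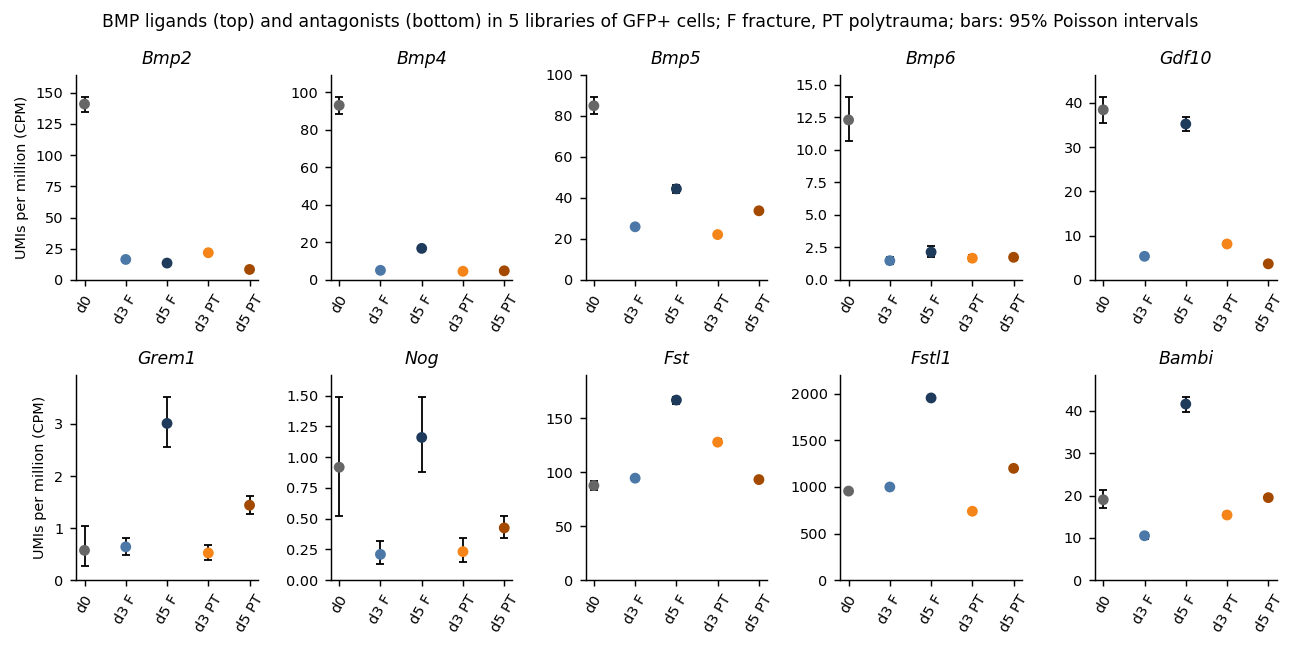
Levels of the 5 ligands (top row) and 5 antagonists (bottom row) in CPM, each on its own axis starting at 0, in the 5 libraries (F fracture, PT polytrauma), with exact 95% Poisson intervals. Every ligand is highest at d0, and Gdf10 comes back to 35.2 at d5 post-fracture but not after polytrauma, while every antagonist is highest at d5 post-fracture. How many of all genes have these peaks was not counted.

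The share of cells with a UMI depends on depth, so each cell was thinned at random to 2000 UMIs, with the shallower cells left out (744 at d0, 225 at d3 post-fracture, 30 at d5 post-fracture, 83 at d3 post-polytrauma and 424 at d5 post-polytrauma). At least 1 ligand was seen in 45.6% of thinned cells at d0 (44.0 to 47.2, n = 3888), 10.7% at d3 post-fracture, 18.4% at d5 post-fracture, 10.3% at d3 post-polytrauma and 9.82% at d5 post-polytrauma. At least 1 antagonist was seen in 70.4%, 83.2%, 89.4%, 77.4% and 88.7%, nearly all through Fstl1. So the uninjured library had the highest share of cells with a ligand transcript and the lowest share with an antagonist transcript. Cells with 2 or more ligands made up 10.6% at d0 (9.62 to 11.6) and 0.417% to 1.39% in the other libraries.

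Among single ligands at d0, Bmp2 was seen in 20.4% of thinned cells, Bmp4 in 14.7%, Bmp5 in 13.9%, Gdf10 in 5.94% and Bmp6 in 2.21%, and without thinning in 31.4%, 22.4%, 21.6%, 8.83% and 4.19%. At d3 post-fracture the thinned shares were 3.23%, 1.58%, 4.88%, 1.62% and 0.261%, and the unthinned ones, at a median depth several times higher, 14.4%, 6.39%, 28.2%, 5.48% and 2.50%. At equal depth every ligand was thus in a smaller share of cells at d3 post-fracture than at d0, while without thinning Bmp5 was in a larger share. Deeper sequencing and more RNA per cell cannot be told apart in the UMIs of a cell. CPM and thinned shares are relative to all UMIs and do not give transcripts per cell. Gdf10 was seen in 5.56% of thinned cells at d5 post-fracture (20.3% unthinned) and in 0.721% at d5 post-polytrauma (3.44% unthinned). Fst was seen in 13.0%, 15.5%, 23.7%, 21.1% and 14.8% of thinned cells at d0, d3 and d5 post-fracture, and d3 and d5 post-polytrauma, and Fstl1 in 65.7% to 86.9%.

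Cells with UMIs of at least 3 of 6 hematopoietic markers served as the background of free RNA. This assumes that they do not express the members, which was not tested, and doublets were not removed from them. There were 4, 25, 4, 101 and 30 of them in the 5 libraries in that order. Of the 86 that could be thinned at d3 post-polytrauma, Bmp2 was seen in 1, Gdf10 in 2, Bambi in 3, Fst in 4 (4.65%) and Fstl1 in 15 (17.4%), and Bmp4, Bmp5, Bmp6, Grem1 and Nog in 0, with an exact interval that reaches 4.20%. The median depth of the marker cells there was 3961 UMIs before thinning and that of the other cells 15813. The d3 post-polytrauma shares of Fst (21.1%) and Fstl1 (71.8%) lay above this background and its intervals. In the other libraries the marker cells were fewer and the background less sharp. Fstl1 was seen in 10 of 24 of them at d3 post-fracture (41.7%, 22.1 to 63.4) and 8 of 23 at d5 post-polytrauma (34.8%, 16.4 to 57.3), below the shares of all cells. Fst was seen in 8.33% (1.03 to 27.0) and 8.70% (1.07 to 28.0) of them, and these intervals hold the 15.5% and 14.8% of all cells. At d3 post-polytrauma the share of Bmp2 (4.09%) lay above the 1.16% of the marker cells but within their interval of 0.0294 to 6.31. The shares of Gdf10 (1.77%) and Bambi (3.02%) there lay below the marker cells' 2.33% (0.283 to 8.15) and 3.49% (0.725 to 9.86). These shares alone therefore do not set Gdf10 and Bambi above the background in that library, where single cells held up to 17 Gdf10 and 19 Bambi UMIs before thinning. The shares of Bmp4 (1.01%), Bmp5 (3.61%) and Bmp6 (0.360%) lay within what 0 of 86 cells allows. The backgrounds at d0 and d5 post-fracture rested on 3 thinned cells each and bound nothing.

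**Figure D2:**
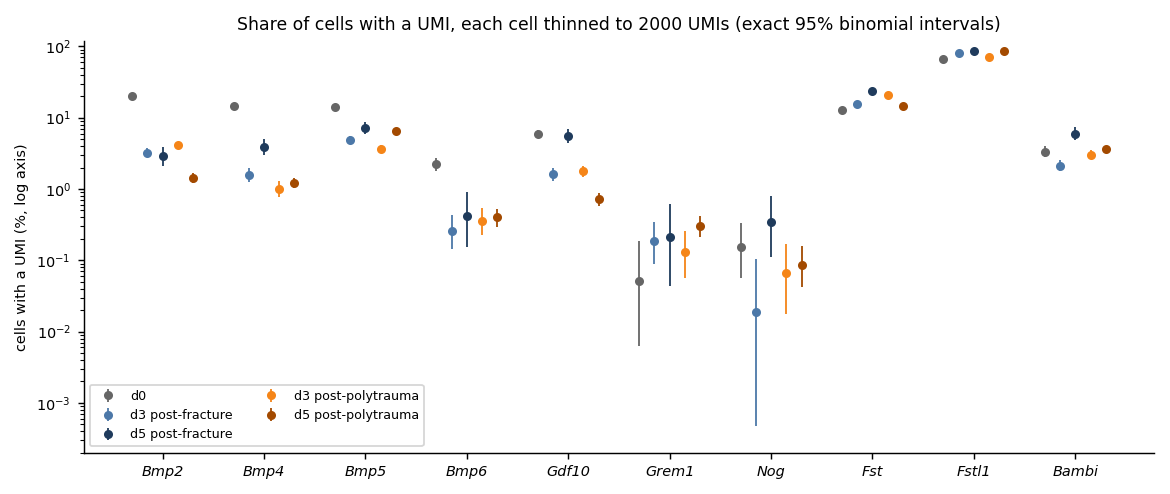
Percent of cells with at least 1 UMI of each member after thinning every cell to 2000 UMIs, on a log axis, with exact 95% binomial intervals, for the 5 libraries. The d0 library stands above the injury libraries for Bmp2, Bmp4, Bmp5 and Bmp6, and Gdf10 pairs d0 (5.94%) with d5 post-fracture (5.56%).

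Most cells with a ligand transcript also had one of the abundant antagonist Fstl1, as in 541 of the 792 thinned cells with Bmp2 at d0 and, at d5 post-fracture, in 93 of the 103 with Bmp5. Over all thinned cells Fstl1 was seen in 2556 of 3888 at d0 (65.7%) and 1249 of 1438 at d5 post-fracture (86.9%). These counts in ligand cells thus lay near the share of all cells. Fst differed between the ligands. At d0, Gdf10 was seen in 14.6% (11.7 to 18.0) of the 506 thinned cells with Fst and in 4.64% (3.96 to 5.41) of the 3382 cells without it. Bmp4 was seen in 10.7% (8.12 to 13.7) of cells with Fst and 15.3% (14.1 to 16.6) of cells without at d0. At d5 post-polytrauma Bmp4 went the other way, with 2.58% (1.88 to 3.45) of cells with Fst and 0.968% (0.784 to 1.18) without. In the remaining libraries the Bmp4 intervals with and without Fst overlapped. At d5 post-fracture Gdf10 was at 5.28% with Fst and 5.65% without. At 2000 UMIs per cell a transcript not seen may still be present, so these shares do not limit co-expression. Among ligand pairs at d0, Bmp4 was at 21.3% with Bmp5 and 13.7% without it, and Gdf10 at 3.16% with Bmp2 and 6.65% without it.

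The comparison of d3 post-fracture with d0 asks how these genes stand in Prx1-derived cells of muscle 3 days after a fracture. Of the 10 members 6 were at least 2-fold lower (Bmp2, Bmp4, Bmp5, Bmp6, Gdf10 and Nog) and 0 at least 2-fold higher, where 33.5% of the 14610 genes with at least 20 UMIs in the pair were lower and 13.0% higher. All 10 members met the minimum of 20 UMIs in every pair. Bmp4 was 18.2-fold lower (log2 ratio -4.19, interval -4.33 to -4.04), Bmp2 8.58-fold, Bmp6 8.33-fold, Gdf10 7.19-fold and Bmp5 3.28-fold lower. Nog was 4.37-fold lower on 21 and 16 UMIs (log2 ratio -2.13, interval -3.13 to -1.09), and with log2(CPM + 1) its ratio was -0.66, under 2-fold. By contrast Fst, Fstl1 and Grem1 had log2 ratios of 0.11, 0.07 and 0.16, and Bambi of -0.86. The median log2 ratio was -3.06 for the 5 ligands and 0.07 for the 5 antagonists, against -0.45 for all genes. Markers of other cells differed in the same comparison. The 5 pericyte markers, all detected in both libraries, summed to 1157 CPM at d0 and 70.2 at d3 post-fracture, and the 5 markers of dividing cells to 7.63 and 393. Cells with UMIs of at least 3 of the pericyte markers made up 11.9% of the d0 library and 1.84% of the d3 post-fracture library, and without them Bmp6 had a log2 ratio of -2.56 and Bmp4 of -4.39, and 6 members were again past 2-fold. The part of dividing cells was not tested. On thinned cells Gdf10 had a log2 ratio of -1.87 and Bmp4 of -3.42.

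From d3 to d5 post-fracture 5 members were at least 2-fold higher and 0 lower, beside 40.3% and 5.45% of the 15115 genes tested, and the median of all genes was itself 0.73 on the log2 scale. Gdf10 was 6.60-fold higher (log2 ratio 2.72, interval 2.58 to 2.86), Nog 5.51-fold, Grem1 4.70-fold, Bambi 3.97-fold and Bmp4 3.29-fold. Fstl1 had a log2 ratio of 0.97, Fst of 0.82, Bmp5 of 0.78, Bmp6 of 0.53 and Bmp2, the only member lower at d5, of -0.28. Relative to the median of all genes, Gdf10 stood at 1.99 and Bmp2 at -1.01, and Bmp6 was at -0.12 when the libraries were scaled by the median of ratios. On thinned cells 3 members (Gdf10, Bmp4 and Bambi) were past 2-fold, Grem1 had a log2 ratio of 0.58, and with the conditions as deposited no member was past 2-fold, with Gdf10 at 0.61 and Bambi at 0.55. Markers of other cells differed as well, with all markers of each list detected in both libraries: the 5 chondrocyte markers summed to 34.8 CPM at d3 and 2440 at d5, the 5 osteoblast markers to 0.740 and 91.2, and the 5 pericyte markers to 70.2 and 227. The osteoblast sum at d5 was nearly all Ibsp, at 78.7 CPM, and Sp7, at 12.2. Bglap stayed low, at 0.212, and Bglap2 and Dmp1 were lower at d5 than at d3. No cluster was named for osteoblasts, so this sum does not show that osteoblasts were present. The paper found no cluster taking an osteogenic fate by d5. The part of the chondrocyte and osteoblast markers in the member ratios was not tested, and without pericyte-marker cells the count was again 5.

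No member was past 2-fold in d3 post-polytrauma against d3 post-fracture, beside 5.45% of the 15038 genes tested that were higher and 3.14% lower. The log2 ratios ran from -0.43 (Fstl1) to 0.61 (Gdf10, interval 0.45 to 0.76), with Bambi at 0.55, Fst at 0.44 and Bmp2 at 0.41. Those of Bmp4 (-0.15), Bmp6 (0.18), Grem1 (-0.29) and Nog (0.15) had intervals that held 0, and those of the other 6 members did not. The share of all genes past 2-fold was itself small here, so the count of 0 of 10 says nothing particular about the members. Gdf10 lay at -0.14 on thinned cells. With the conditions as deposited, 5 members were past 2-fold higher.

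At d5 all 10 members were lower post-polytrauma than post-fracture. The share of all genes lower by any amount was not counted. Of the members, 5 were at least 2-fold lower (Gdf10, Bmp4, Nog, Bambi and Grem1), beside 14.7% of the 15979 genes tested that were at least 2-fold lower and 3.70% higher. Gdf10 was 9.70-fold lower (log2 ratio -3.28, interval -3.40 to -3.15), Bmp4 3.47-fold, Nog 2.72-fold, Bambi 2.13-fold and Grem1 2.08-fold lower. Fst (-0.84), Fstl1 (-0.70), Bmp2 (-0.69), Bmp5 (-0.40) and Bmp6 (-0.30, interval -0.61 to 0.02) were under 2-fold, and the median of all genes was -0.12. The chondrocyte markers moved with this comparison: the 5 markers summed to 2440 CPM at d5 post-fracture and 174 at d5 post-polytrauma, with none at 0 in either, and their part in the member ratios was not tested. The 2 libraries share barcodes, and an alternative left out every cell with a barcode of another library except those at 10-fold or more of its UMIs there, which took 11 cells from d5 post-fracture and 338 from d5 post-polytrauma and left the count of lower members at 5. The other d5 post-fracture cells with a shared barcode stayed in. On thinned cells Gdf10 and Bmp4 stayed past 2-fold (-3.14 and -1.74), Bmp2 joined them at -1.10, and Grem1 had a log2 ratio of 0.25. Grem1 and Bambi came under 2-fold when scaled by the median of ratios (-0.94 and -0.97), and Grem1 and Nog with log2(CPM + 1) (-0.71 and -0.60). With the conditions as deposited, Bmp2 and Gdf10 were lower (-1.38 and -1.16) and Grem1 was higher (1.47).

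From d3 to d5 post-polytrauma Bmp2 was 2.61-fold and Gdf10 2.24-fold lower, and Grem1 2.76-fold higher. Beside these 2 lower and 1 higher members, 7.49% and 28.8% of the 16093 genes tested were lower and higher, with a median of 0.48. Bmp4 (0.08), Bmp6 (0.06), Bambi (0.35), Fst (-0.46), Bmp5 (0.61), Fstl1 (0.70) and Nog (0.87) were under 2-fold. Scaled by the median of ratios, Grem1 was at 0.96 and Bmp4, Bmp6 and Bambi were below 0 (-0.43, -0.45 and -0.16). With log2(CPM + 1) Gdf10 was at -0.98 and Grem1 at 0.68. The 5 chondrocyte markers summed to 6.01 CPM at d3 and 174 at d5 post-polytrauma, all detected in both, and their part was not tested. With the conditions as deposited, 5 members were lower and 0 higher. The 5 comparisons share libraries, so they are not independent of each other.

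**Figure D3:**
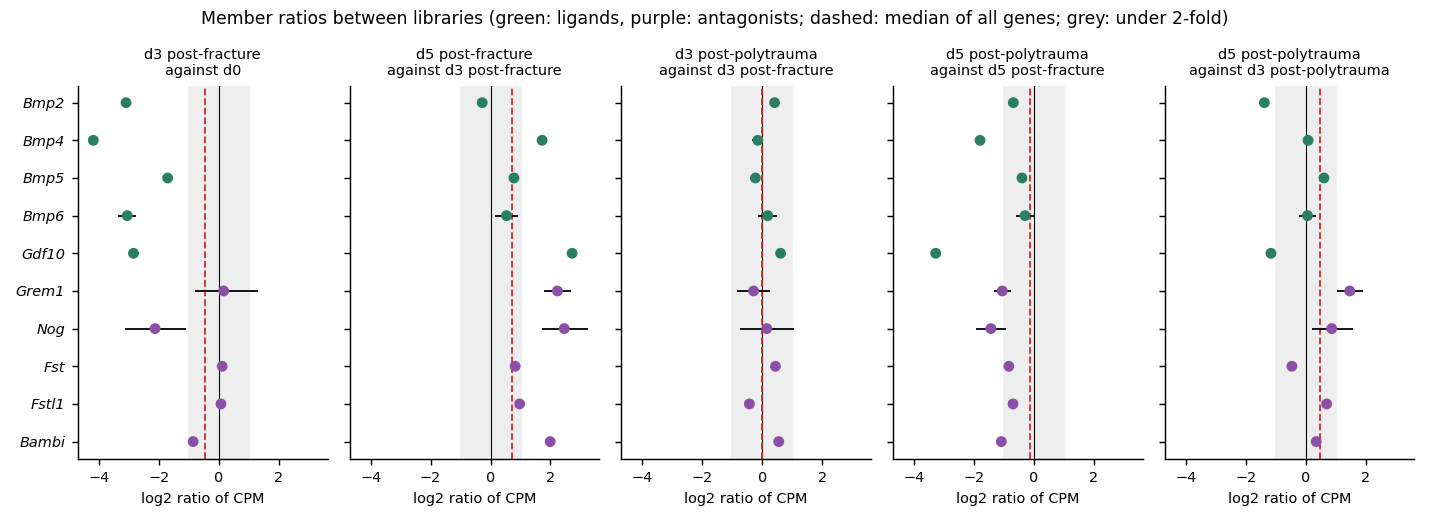
Log2 ratios of CPM for each member (green ligands, purple antagonists) in the 5 comparisons, with exact 95% intervals, the grey band marking under 2-fold and the dashed line the median of all genes. The ligands sit left of the band in d3 post-fracture against d0, and Gdf10 changes sides between d5 against d3 post-fracture (2.72) and post-polytrauma (-1.16).

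Which cells held the transcripts was read from clusters made in each library on its own, without the members, the pathway genes or the marker genes. Clusters are named by their leading genes, and called FAP/MP-like (fibro-adipogenic/mesenchymal progenitors), tenocyte-like, pericyte-like or chondrocyte-like where markers allowed. Gdf10 was concentrated in few clusters. At d0 an FAP/MP-like cluster led by Inmt, Stc1 and Hp, 8.85% of the cells, held 45.4% of its UMIs at 275 CPM, against 22.3 in all other cells, and an FAP/MP-like cluster led by Cyp2f2 and Clu held 29.6% at 101 CPM. At d5 post-fracture 62.3% of its UMIs lay in an FAP/MP-like cluster led by Cxcl14, Rsad2 and Ifit1 (11.4% of the cells, 235 CPM), followed by one led by Dpp4 and Pi16 (54.5 CPM). At d5 post-polytrauma the FAP/MP-like cluster led by Penk, Cxcl10 and Ifit1 held 33.2% at 19.2 CPM. A cluster of 140 cells led by Xist and Sfrp4 had a higher value, 47.6 CPM, on 9 UMIs. Of its cells, 119 (85.0%) carried a barcode of another library and held under 10-fold its UMIs there.

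Bmp4 at d0 lay mostly outside the mural cells. It ran from 252 CPM in the FAP/MP-like cluster led by G0s2 to 4.68 in the cluster led by Tagln and Myh11, which had all 5 pericyte markers above the rest but stayed unnamed because 2 hemoglobin genes stood among its leading 10. At d5 it was highest in the clusters that held the most Gdf10 UMIs, at 54.3 CPM in the Cxcl14 cluster post-fracture and 34.8 CPM in the Penk cluster post-polytrauma, which held 45.2% of that library's Bmp4. It was lowest in the Col2a1 cluster post-fracture (2.12) and in a cluster led by Anxa8 and Ank post-polytrauma (0.594).

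Bmp2 was arranged otherwise, and in the clusters with the most Bmp4 at d5 it was low, at 2.89 CPM in the Cxcl14 cluster and 3.22 in the Penk cluster. At d0 it was spread over 65.8 to 221 CPM in the 10 clusters of at least 50 cells, highest in the FAP/MP-like cluster led by Mrgprg and Stmn4. At d3 post-fracture it was highest in the pericyte-like cluster led by Myh11 (97.4 CPM, 27 UMIs), and at d3 post-polytrauma the tenocyte-like cluster led by Fmod and Mmp13, 8.85% of the cells, held 31.0% of its UMIs at 69.1 CPM. At d5 post-polytrauma the Anxa8 and Ank cluster, 6.81% of the cells, held 44.0% at 44.3 CPM, against 5.11 in all other cells, and the pericyte-like cluster of 106 cells lay at 46.4 CPM (35.8 to 59.2). At d5 post-fracture the tenocyte-like cluster led by Adra2a and Enpp1 held 34.9% at 21.6 CPM, and the 38 pericyte-like cells had the higher level of 130 CPM (105 to 160) on 90 UMIs. The hematopoietic-like clusters at d3 and d5 post-polytrauma, 92 and 110 cells, had 0 Bmp2 UMIs. An unnamed cluster of 322 cells led by Lyz2, Cd74 and Pf4 at d3 post-fracture had 9, at 9.71 CPM, the lowest level among the clusters there.

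Bmp5 and Bmp6 had other distributions again. Bmp5 was highest at d0 in a cluster led by Saa1, Thrsp and Dlk1 (269 CPM) and lowest in the Tagln and Myh11 cluster (22.2), and at d3 post-fracture it ran only from 8.61 to 35.9 CPM over 9 clusters. Bmp6 at d0 was highest in the Tagln and Myh11 cluster, which held 47.9% of its UMIs at 32.1 CPM, and at d3 post-fracture in the pericyte-like Myh11 cluster, at 36.1 CPM on 10 UMIs. At d5 post-fracture 41.4% of its 111 UMIs lay in the Dpp4 and Pi16 cluster.

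Among the antagonists, Fst was highest at d0 in the Cyp2f2 and Clu cluster (278 CPM, 35.6% of its UMIs), at d5 post-fracture in a cluster led by the granzyme genes Gzme and Gzmb (274 CPM) and at d5 post-polytrauma in the Penk cluster (245 CPM). Fstl1 was seen in every cluster of each library. It ran from 168 CPM in the Tagln and Myh11 cluster to 2325 in the Mrgprg cluster at d0, and from 374 in the Col2a1 cluster to 3431 in the Dpp4 and Pi16 cluster at d5 post-fracture. Bambi was highest in the chondrocyte-like Col2a1 clusters at d5, at 71.9 CPM post-fracture and 68.5 post-polytrauma. Of the 222 cells of the polytrauma cluster, 99 (44.6%) carried a barcode of another library and held under 10-fold its UMIs there. The part of these cells in this value was not tested. The cluster at d0 led by Wif1 and Chad, with 4 of 4 tenocyte markers above the rest but 2 osteoblast markers among its leading 10, held 7 of the 10 Grem1 UMIs, 8 of the 16 Nog UMIs and the highest Bambi level (42.5 CPM). At d5 post-fracture the Adra2a and Enpp1 cluster held 51.9% of the Grem1 UMIs, or 81 of 156. Of these 81 UMIs, 61 came from 1 cell, so this share rests mostly on that cell.

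**Figure D4:**
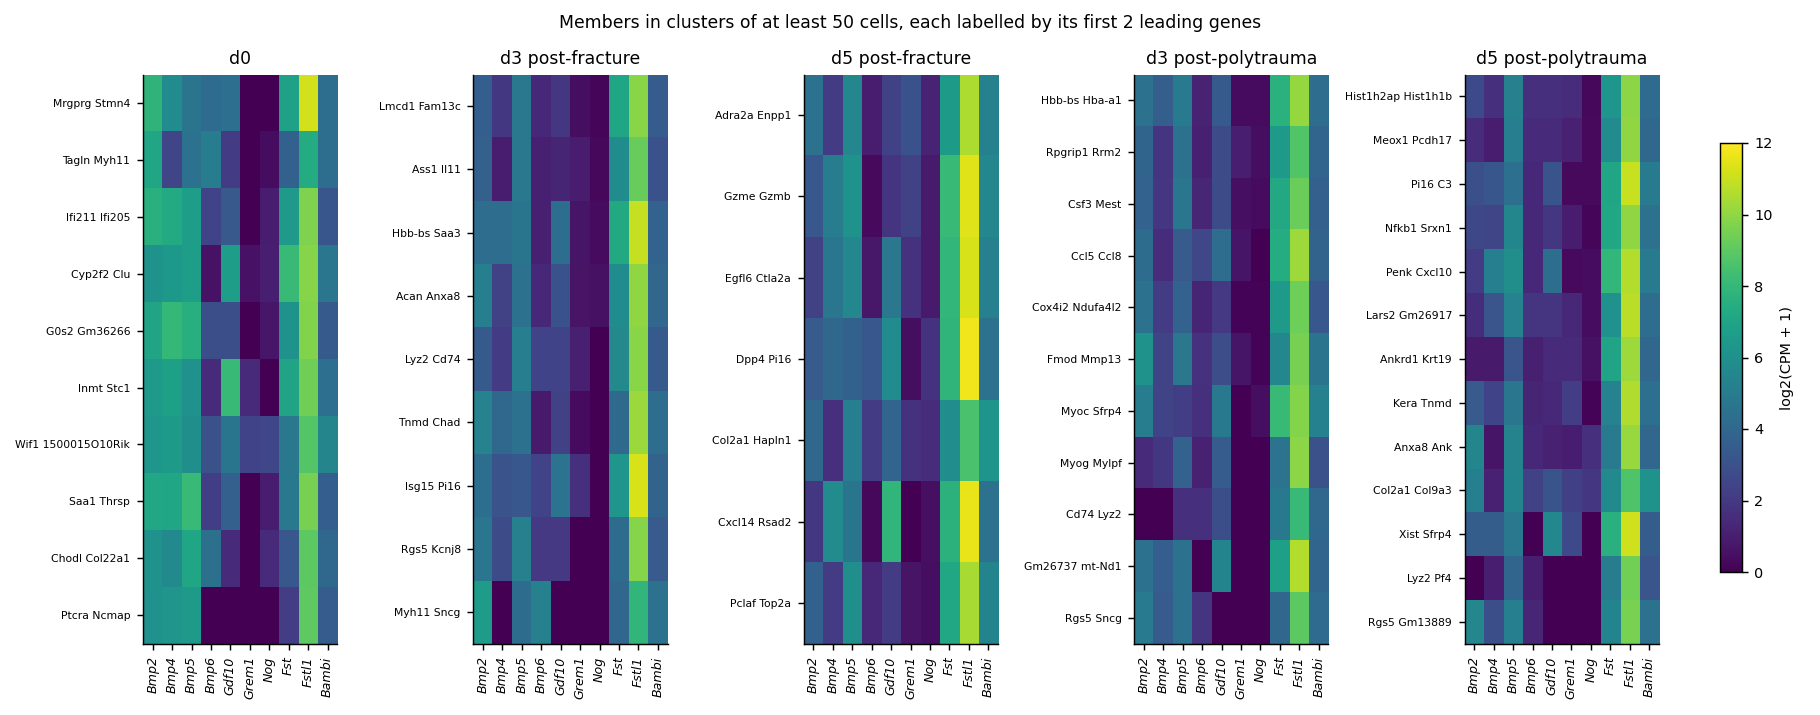
Members (columns) in each cluster of at least 50 cells (rows, labelled by 2 leading genes) of the 5 libraries, coloured by log2(CPM + 1). Gdf10 and Bmp4 are bright together in the Cxcl14 row at d5 post-fracture (235 and 54.3 CPM) and in the Penk row at d5 post-polytrauma (19.2 and 34.8 CPM), where Bmp2 is dark (2.89 and 3.22 CPM).

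Since the libraries differed in their cell types, the members were also read within FAP/MP-like cells alone, a summary added after the cluster values had been seen. These were 3038 cells of 5 clusters at d0 (65.6%), 104 cells of the cluster led by Isg15 and Pi16 at d3 post-fracture (1.86%), 532 cells of the Egfl6, Dpp4 and Cxcl14 clusters at d5 post-fracture (36.2%), 882 cells of a cluster led by Ccl5 and Ccl8 at d3 post-polytrauma (14.2%) and 4030 cells of the Pi16, Penk, Lars2 and Ankrd1 clusters at d5 post-polytrauma (33.7%). Within them Bmp2 lay at 160, 19.4, 5.52, 17.9 and 3.28 CPM in that order, and Bmp4 at 119, 7.53, 30.0, 1.88 and 11.6. Gdf10 lay at 57.3, 22.6, 92.9, 18.4 and 7.52. As over all cells, Bmp2 and Bmp4 were highest at d0, while the Gdf10 level at d5 post-fracture was above that at d0. Fst lay at 134, 75.3, 229, 172 and 149 CPM and Fstl1 at 1338, 2484, 2931, 1230 and 1595. The d3 post-fracture values rest on few cells, with 18 UMIs for Bmp2, 7 for Bmp4 and 21 for Gdf10. The class also leaves out larger unnamed clusters led by hemoglobin genes with FAP/MP markers above the rest. These were 1128 cells at d3 post-fracture (5 of 5 markers, Bmp2 18.8, Bmp4 18.7 and Gdf10 18.9 CPM) and 1331 cells at d3 post-polytrauma (4 of 5 markers, Bmp2 21.6, Bmp4 11.4 and Gdf10 9.42 CPM). The d3 levels of Bmp4, at 7.53 and 1.88 in the named class, thus depend on which clusters are counted, and all of these Bmp4 levels lay below the 119 at d0.

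The other genes of the pathway give the frame for the members. At d3 post-fracture against d0, 33.5% of all genes tested were at least 2-fold lower and 13.0% higher. Of the 8 BMP target genes with enough UMIs, 7 were lower and 0 higher, with a list median of -2.20. The inhibitor of differentiation genes led them: Id2 lay at 243 CPM at d0 and 29.1 at d3, Id4 at 20.0 and 1.41. Of other BMP and GDF ligands, 3 of the 4 tested were lower, with Bmp7 at 13.0 and 0.140 CPM and Bmp3 at 8.66 and 0.110. Other antagonists were lower in 8 of 12 and higher in 1, among them Kcp (13.6 and 1.13) and chordin (Chrd, 10.5 and 1.04). Receptors were lower in 4 of 7 and higher in 1, Bmpr1b, at 2.01 and 6.47 CPM, while Acvrl1 lay at 56.4 and 22.2. Of the co-receptors 3 of 5 were lower, with Rgma at 32.1 and 4.80. The SMAD list had 3 of 7 lower, with the inhibitory Smad6 at 5.96 and 1.51. Inhba, the activin A subunit that Fst binds as a protein, went the other way, at 60.6 CPM at d0 and 538 at d3 post-fracture.

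From d3 to d5 post-fracture 4 of 8 targets, 5 of 6 other ligands, 8 of 12 other antagonists, 5 of 7 receptors, 3 of 5 co-receptors and 4 of 7 SMAD genes were at least 2-fold higher and 0 of them lower, beside the 40.3% of all genes. Id4 lay at 16.5 CPM at d5, Gdf5, a joint and cartilage ligand, at 6.27 from 0.390, Chrdl2 at 11.3 from 1.13, Smad6 at 9.18 and the osteogenic target Dlx5 at 13.9 from 3.46. Inhba was lower, at 157. At d5 post-polytrauma against d5 post-fracture, 6 of 6 other ligands, 5 of 12 other antagonists, 3 of 8 targets and 1 of 7 SMAD genes were at least 2-fold lower and 0 higher, while 0 of 7 receptors and 0 of 5 co-receptors were past 2-fold. Of all genes tested 14.7% were lower and 3.70% higher, and the SMAD count is near that share. Examples, with the polytrauma value first, were Bmp3 (0.178 and 2.64 CPM), Gdf5 (0.470 and 6.27), Chrdl1 (5.12 and 33.5), Id2 (24.0 and 86.8), Dlx5 (2.12 and 13.9) and Smad6 (3.41 and 9.18). At d3 the injuries were close: among the 3 activin and myostatin, 7 receptor, 5 co-receptor and 7 SMAD genes tested none was past 2-fold between polytrauma and fracture, and Inhba lay at 593 and 538. Of all genes only 5.45% were higher and 3.14% lower there.

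From d3 to d5 post-polytrauma, 6 of 7 receptors, 4 of 7 SMAD genes, 5 of 12 other antagonists, 2 of 10 targets and 1 of 5 other ligands were at least 2-fold higher, beside 28.8% of all genes, and 1 target and 1 other ligand were lower, beside 7.49% of all genes. Acvr2a lay at 21.4 from 8.36 CPM, Smad7 at 82.5 from 21.3 and Id4 at 5.31 from 1.75. Inhba was lower there too, at 248 from 593, while 2 of the 3 activin and myostatin genes tested were higher, with Inhbb at 0.860 from 0.126 CPM. Of the co-receptors 1 of 5 was higher and 0 lower.

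**Figure D5:**
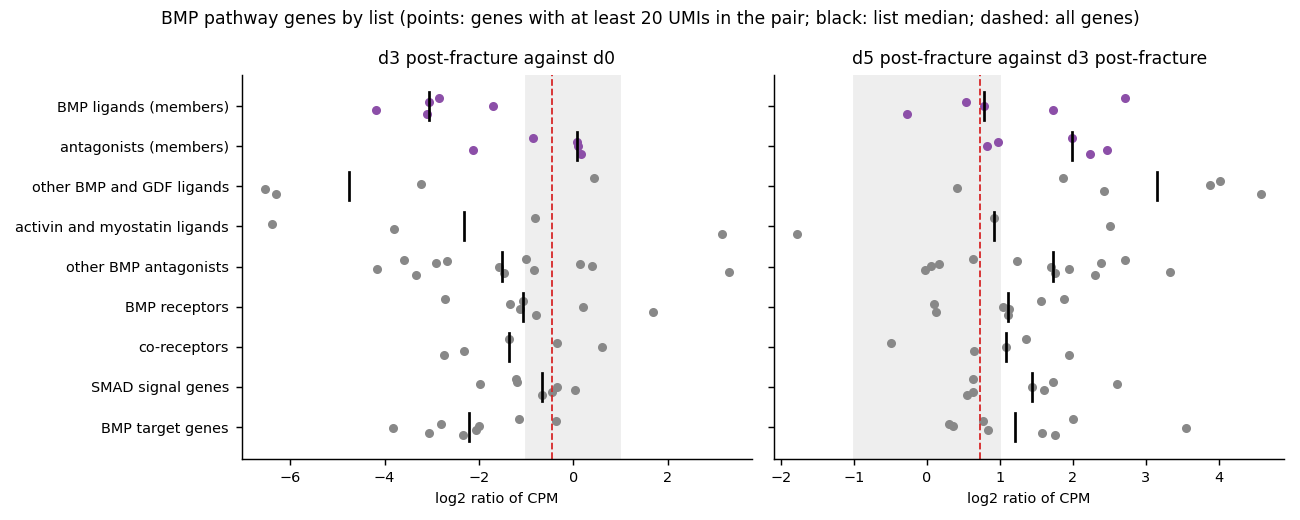
Log2 ratios of CPM of the pathway genes by list, each point a gene with at least 20 UMIs in the pair (members in purple), the black bar the list median and the dashed line the median of all genes. At left the 5 ligand members and 7 of 8 targets lie below the median of all genes. At right most lists lie to the right of 0, as does the median of all genes (0.73), and the median of the 5 ligand members is 0.78.

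Across the 50 clusters of at least 50 cells, the genes with the pattern most like each member were Fcgrt, Cd302 and Abca8b for Bmp4 (Pearson r of log2(CPM + 1), 0.91 to 0.89), Col3a1, Fbn1 and Sulf1 for Fstl1 (0.91 to 0.88), Tmbim1, Cryab and Plekhf1 for Bmp2 (0.82 to 0.80), Fgf7, Osr1 and Col14a1 for Fst (0.81 to 0.78), Ces2g, Cfb and Mmp3 for Gdf10 (0.80 to 0.79) and Btrc, Dync2li1 and Itfg2 for Bmp5 (0.80 to 0.78). Lower values were reached for Bambi (Matn3, Fgfr2 and Shank1, 0.76 to 0.73), Bmp6 (Grp, Sh3bgr and Olfr78, 0.72 to 0.68) and Grem1 (Gm29157, Kcns1 and Rnf144a, 0.68 to 0.67), and Nog had too few UMIs. Among the members, Bmp4 was most like Bmp5 (0.66), Fst like Fstl1 (0.62) and Gdf10 like Fst (0.58), while Bmp6 and Fstl1 went opposite ways (-0.41). Clusters of a library share its cells, depth and mice, so these values only describe the clusters.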

How the data were processed

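Single-cell libraries were prepared with 10x Chromium 3' v2 chemistry. Per the submitters' processing notes, Cell Ranger (its version differs between the file headers and the study's methods), Seurat 3.1.2 and the mm10 build were used. The deposited files hold raw UMI counts per gene and barcode, with no normalization by the authors. From the counts, cells with 350 to 8000 genes, under 20% mitochondrial UMIs and at least 1000 UMIs were kept, and counts were summed per library and per cluster (scanpy 1.11.5 with leidenalg 0.10.2, 2000 variable genes, 20 components, resolution 0.5, members, pathway genes and markers left out). Depth ran from 17437190 to 202233564 UMIs per library. A gene was past 2-fold where the ratio of CPM was at least 2 with at least 20 UMIs in the pair, and a count of 0 was set to a floor of 3 UMIs. Intervals are exact (Poisson, conditional binomial, Clopper-Pearson) at 95%.

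Scrublet's automatic threshold marked 0 to 3 cells per library and had not worked, so that no doublets were removed and the cells with the highest scores were left out in an alternative. On simulated counts for 31055 genes (d3 post-fracture against d0) with counting error only, all 200 genes changed 4-fold or 8-fold up or down were called and 0 of 200 unchanged ones. These folds lie well past the cut, so the simulation checks the arithmetic and says nothing on folds near 2. All these genes had more UMIs at d0 than Grem1 and Nog, and differences between mice or libraries were not simulated. The named genes were all members, the 2 genes of each pathway list with the largest log2 ratio among those with at least 100 UMIs, and the 3 genes most like each member with at least 500 UMIs. The members and lists were chosen with earlier results of these data known. The GC box, the sums over named clusters, the concentration of UMIs in single cells, the marker sums and the pericyte-marker alternative were added after seeing the data. The alternatives were median-of-ratios scaling, no UMI minimum, removal of shared barcodes, highest Scrublet scores, hematopoietic-marker or pericyte-marker cells, thinning, log2(CPM + 1), and conditions as deposited. Scripts ran in Python 3.11.15 (pandas 2.3.3, numpy 2.4.6, scipy 1.17.1), and figures were drawn with matplotlib 3.10.9.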

Additional observations from a re-analysis of the deposited data

Results flagged for a closer look

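In 2 members the difference between d5 and d3 had opposite directions after the 2 injuries. Gdf10 had a log2 ratio of 2.72 from d3 to d5 post-fracture and of -1.16 from d3 to d5 post-polytrauma, and Fst of 0.82 and -0.46. Scaled by the median of ratios, Bmp4 (1.07 and -0.43) and Bambi (1.34 and -0.16) had opposite directions too, besides Gdf10 (2.08 and -1.67) and Fst (0.17 and -0.97). With 1 library per condition the difference between the injuries was not tested.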

How the results depend on the processing

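No paired analysis was possible because each condition has 1 library. For the same reason no library could be left out and no result has a test. Leaving out the UMI minimum, cells of shared barcodes, the highest Scrublet scores, hematopoietic-marker cells or pericyte-marker cells left every count of members past 2-fold within 1.5 times its value. From d3 to d5 post-fracture, the 5 higher members became 3 on thinned cells and 0 with the conditions as deposited, where Bmp4 was at -0.15 and Grem1 at -0.29. In d3 post-polytrauma against d3 post-fracture, 0 higher members became 5 as deposited. In d5 post-polytrauma against d5 post-fracture, the 5 lower members became 3 under median-of-ratios scaling, 3 on thinned cells (Grem1 at 0.25), 3 with log2(CPM + 1), and 2 as deposited, with 1 higher (Grem1 1.47, Nog 0.87, Bambi 0.35 and Bmp4 0.08). From d3 to d5 post-polytrauma, the 1 higher member became 0 under median-of-ratios scaling, with log2(CPM + 1) and as deposited (Grem1 at -1.06), and the 2 lower members became 1 with log2(CPM + 1) and 5 as deposited. The reversals as deposited come from exchanging the 2 libraries, and the cause of the other differences was not tested. In d3 post-fracture against d0, the counts of 6 lower and 0 higher held to within 1.5 times under every alternative that applies, with 5 lower under log2(CPM + 1), where Nog was at -0.66. Of the 50 member ratios, 31 moved by more than their interval under median-of-ratios scaling, 32 on thinned cells and 15 with log2(CPM + 1), and 32 of 40 as deposited, besides the reversed ones given. Median-of-ratios scaling took the median log2 ratio of all genes from -0.45 to 0.01 in d3 post-fracture against d0, from 0.73 to 0.08 from d3 to d5 post-fracture and from 0.48 to -0.03 from d3 to d5 post-polytrauma. Of the 50 member shares, 48 moved without thinning and 44 at 5000 UMIs, and of the 9 highest correlations with a member 6 moved over clusters of at least 100 cells. Depth limits Grem1 and Nog most, with 10 and 16 UMIs at d0.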
